A study of Mus musculus with 6 samples.

Results

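Costimulatory and checkpoint ligands are surface proteins with which one cell tells another, most often a T cell or a macrophage, whether to respond. CD80 and CD86 bind CD28, which promotes T cell activation, and CTLA4, which restrains it. PD-L1 (*Cd274*) and PD-L2 (*Pdcd1lg2*) bind the inhibitory receptor PD-1, ICOS ligand (*Icosl*) binds ICOS, B7-H3 (*Cd276*) is a family member whose receptor is debated, CD40 is the receptor through which CD40 ligand on T cells signals back to antigen-presenting cells, and CD47 binds SIRPα on macrophages and restrains engulfment. Several of these genes respond to interferon in mature immune cells, and hematopoietic stem cells (HSCs) carry CD47. These 8 genes were chosen by symbol from a table of 26264 genes, and all 8 were among the 17404 genes with enough reads to be tested. Their transcripts were compared between WT HSCs and HSCs without IRF1, an interferon regulatory factor that controls transcription downstream of interferon and other inflammatory signals.

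The comparison used bulk RNA-seq of HSCs from the bone marrow of untreated female mice, 8 weeks old, with 3 libraries per genotype. WT mice were C57Bl/6, and *Irf1-/-* mice carried the germline knockout allele B6.129S2-Irf1 tm1Mak/J, so that every cell of the animal, including those around the HSCs, lacked IRF1. HSCs had been sorted as lineage-negative, Sca-1- and Kit-positive cells with CD150 and without CD48, and the cDNA was amplified with a SMART-Seq kit that attaches no molecular identifiers. Replicates carry the numbers 2, 3 and 4 in both genotypes. Values are normalized counts, that is, read counts per gene divided by 1 size factor per library. Reads on genes numbered 59658080, 45332573 and 43267486 in WT libraries 2, 3 and 4, and 43138521, 57281017 and 45129929 in *Irf1-/-* libraries 2, 3 and 4. At this depth 1 read was worth between 0.823 and 1.13 normalized counts.

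The libraries did not group by genotype alone. The leading principal component, which held 32.4% of the variance, placed *Irf1-/-* libraries 2 and 4 with WT library 4 on one side, and *Irf1-/-* library 3 with WT libraries 2 and 3 on the other. The next component, with 24.8% of the variance, separated the genotypes, with *Irf1-/-* libraries between 5.72 and 57.6 and WT libraries between −37.7 and −14.8. WT library 4 also held granulocyte transcripts that the others had at lower levels. The 8 granulocyte markers summed to 7875 normalized counts there, with *Ngp* at 2535, against sums between 362 and 930 in the other 5 libraries. *Irf1* transcripts were counted at 10122, 11120 and 12057 in WT and at 9267, 9524 and 9287 in *Irf1-/-* libraries. The knockout libraries were thus at 84.3% of the WT mean, below every WT library, and *Irf1* was not called (adjusted *P* = 0.170, limma with Benjamini-Hochberg adjustment). A count per gene does not show which exons were read, so this value does not check the genotype labels.

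*Cd86* was the ligand that fell. Its normalized counts were 632.0, 729.1 and 682.1 in WT libraries 2, 3 and 4, and 282.5, 252.3 and 242.9 in *Irf1-/-* libraries 2, 3 and 4. The genotypes were far apart, with the highest knockout library below the lowest WT library, and the spread within a genotype was small (SD 48.6 in WT and 20.7 in *Irf1-/-*, n = 3 each). The mean was 61.9% lower, a 2.63-fold difference. On the scale of log2(normalized count + 1), used for all fold changes here, the difference was −1.39 (SE 0.17, 95% confidence interval −1.75 to −1.03), with an adjusted *P* of 3.24e-04 in limma with Benjamini-Hochberg adjustment over all tested genes. In bulk RNA, fewer cells that carry a transcript and less of it per cell cannot be told apart. By *P* value *Cd86* ranked 47 among the tested genes, and by the size of its fall 148. The difference was of similar size on either side of the leading principal component: 252.3 against 632.0 and 729.1 on the one, and 282.5 and 242.9 against 682.1 on the other. Without WT library 4, the one with granulocyte transcripts, it was −1.39 as well.

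Genes were called at an adjusted *P* under 0.05 and a log2 fold change beyond 0.58 in either direction. By this rule limma called 1 of the 8 ligands lower and 0 higher, where it called 0.954% of all tested genes lower and 0.96% higher. edgeR and DESeq2, run on recovered reads, also called *Cd86* lower and 0 of the 8 higher. At an unadjusted *P* under 0.05, 2 of the 8 passed (*Cd86* and *Cd47*), against 16.5% of tested genes. The libraries of the genotypes did not overlap for the same 2 of 8, both lower, where 19.9% of tested genes did not overlap. The median log2 fold change of the 8 was 0.08, and that of all tested genes was −0.0028. The plot of normalized counts per library and the plot of log2 fold changes show all 8.

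*Cd80*, which shares both receptors with *Cd86*, was close to the limit of detection. It had 24, 23 and 19 reads in WT libraries 2, 3 and 4 and 24, 8 and 24 reads in *Irf1-/-* libraries 2, 3 and 4. *Irf1-/-* library 3 alone stood low and the other 5 libraries overlapped, so a difference was not detectable at this depth. The log2 difference was −0.38 (SE 0.64, 95% confidence interval −1.76 to 1.01, adjusted *P* = 0.851 in limma with Benjamini-Hochberg adjustment), and without *Irf1-/-* library 3 it was 0.20. Per kb of exon, *Cd86* made up 96.1%, 95.6% and 96.3% of the sum of *Cd80* and *Cd86* in WT libraries 2, 3 and 4. In *Irf1-/-* libraries 2, 3 and 4 this share was 89.5%, 96.6% and 88.3%. Libraries 2 and 4 of the knockout were thus below every WT library, and library 3, the one with few *Cd80* reads, was above them. The log2 ratio of *Cd80* to *Cd86* differed by 1.01 between genotypes (exact two-sided permutation *P* = 0.4, where 3 against 3 libraries cannot go below 0.1), and by 1.57 without *Irf1-/-* library 3. *Cd86* thus remained the more abundant of the pair in all 6 libraries.

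The PD-1 ligands, both induced by interferon in many cell types, were not called. *Cd274* was counted at 3067, 2592 and 2719 in WT and at 3212, 2971 and 3276 in *Irf1-/-* libraries 2, 3 and 4. WT library 2 lay among the knockout libraries and the other WT libraries lay below them. The log2 difference was 0.18 (SE 0.099, 95% confidence interval −0.034 to 0.39, adjusted *P* = 0.417 in limma with Benjamini-Hochberg adjustment). The interval for *Cd274* thus leaves out any fall of the size seen for *Cd86*. *Pdcd1lg2*, its neighbour on the chromosome, was counted at 223.8, 122.8 and 199.0 in WT and at 210.0, 261.8 and 253.3 in *Irf1-/-* libraries 2, 3 and 4. The genotypes overlapped, and WT library 3 was the lowest of the 6. The log2 difference of *Pdcd1lg2* was 0.45 (SE 0.26), and 0.19 without WT library 3 (adjusted *P* = 0.449 with all libraries and between 0.318 and 0.846 over the alternatives, limma, edgeR or DESeq2 with Benjamini-Hochberg adjustment). PD-L2 transcripts made up 13.8%, 9.45% and 13.9% of the sum of both ligands per kb of exon in WT, and 12.6%, 16.3% and 14.5% in *Irf1-/-* libraries 2, 3 and 4. These shares overlapped as well, and the log2 ratio of *Pdcd1lg2* to *Cd274* differed by 0.27 (exact two-sided permutation *P* = 0.4) and by 0.063 without WT library 3.

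*Icosl* and *Cd276*, the remaining B7-family ligands, also overlapped between genotypes. *Icosl* was counted at 330.8, 289.6 and 218.4 in WT and at 364.6, 333.6 and 241.9 in *Irf1-/-* libraries 2, 3 and 4. Both libraries numbered 4 were the lowest of their genotype, and the spread within each genotype was larger than the difference between them (log2 difference 0.16, SE 0.23; −0.0039 without WT library 4). *Cd276* was counted at 241.9, 395.6 and 528.2 in WT and at 560.7, 433.8 and 511.8 in *Irf1-/-* libraries 2, 3 and 4. Its levels followed the leading principal component more closely than the genotype. The 3 libraries on one side (*Irf1-/-* 2 and 4 and WT 4) lay between 511.8 and 560.7, and the 3 on the other side lay between 241.9 and 433.8. The log2 difference of *Cd276* between genotypes was 0.43 (SE 0.24, adjusted *P* = 0.427 in limma with Benjamini-Hochberg adjustment). It was 0.13 without WT library 2, 0.69 without WT library 4 and 0.25 with a term for the side of the leading component, and it was not called in any of these fits.

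*Cd40* varied the most between WT libraries (coefficient of variation 49.9%). It was counted at 44.4, 63.1 and 116.2 in WT and at 88.5, 61.4 and 59.2 in *Irf1-/-* libraries 2, 3 and 4. WT libraries held both the lowest and the highest value of the 6. The log2 difference was −0.0080 with a standard error of 0.41. Its sign turned when single libraries were left out, to 0.070 without *Irf1-/-* library 3, 0.096 without *Irf1-/-* library 4 and 0.36 without WT library 4. The 95% confidence interval for *Cd40* reached from −0.89 to 0.88, so these libraries do not bound its difference closely.

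*Cd47*, the signal that restrains engulfment, was the most abundant ligand. It was counted at 29489, 30196 and 27371 in WT and at 25049, 25043 and 25133 in *Irf1-/-* libraries 2, 3 and 4. Every knockout library was below every WT library, and the coefficient of variation was 0.203% in the knockout libraries and 5.06% in WT. The mean was 13.6% lower in *Irf1-/-* HSCs. The log2 difference was −0.21 (SE 0.084, 95% confidence interval −0.39 to −0.030), and *Cd47* was not called (adjusted *P* = 0.218, limma with Benjamini-Hochberg adjustment, and between 0.0712 and 0.549 over the alternatives). Its interval stays within the fold change threshold on both sides.

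**Figure D1:**
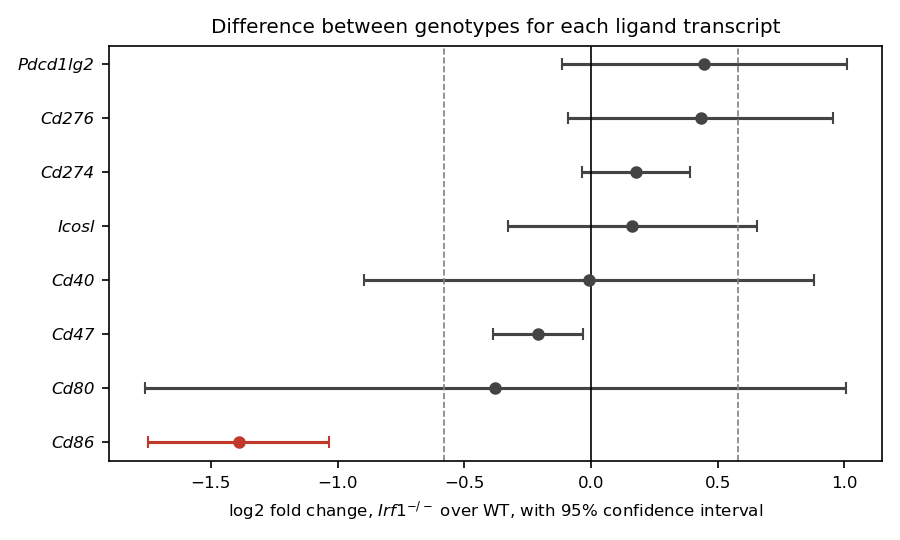
Log2 fold change of each ligand transcript, *Irf1-/-* over WT, on the log2(normalized count + 1) scale (horizontal axis), with whiskers for the 95% confidence interval of limma and dashed lines at −0.58 and 0.58. *Cd86*, drawn in red, is at −1.39, and the intervals of 6 of the other 7 include 0, the exception being *Cd47* at −0.21.

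Levels can be compared between genes only per length of transcript. In WT HSCs the means per kb of exon were 5499 for *Cd47*, 771 for *Cd274*, 181 for *Cd86*, 118 for *Cd276*, 111 for *Pdcd1lg2*, 98.4 for *Icosl*, 21.9 for *Cd40* and 7.54 for *Cd80*. *Cd276*, *Pdcd1lg2* and *Icosl* overlapped one another across WT libraries, and each of the other neighbours in this order was apart. In *Irf1-/-* HSCs *Cd86* moved from place 3 to place 6 of 8. At a mean of 68.8 per kb (between 64.5 and 75.0), it lay below *Icosl* (between 85.1 and 128 per kb), which it exceeded in every WT library. The order of the other 7 was the same in both genotypes, with *Cd276* at 152, *Pdcd1lg2* at 147 and *Icosl* at 110 per kb.

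The genes whose levels were most like those of *Cd86* over the 6 libraries were *Tapbpl*, *Apol7e*, *Iigp1*, *H2-Eb1* and *Gm12185* (Pearson's *r* between 0.996 and 0.997 on the log2 scale). All 5 were called lower. *Tapbpl*, which encodes an editor of peptides on MHC class I, was counted at 4136, 4850 and 4134 in WT and at 1831, 1704 and 1675 in *Irf1-/-* libraries 2, 3 and 4, a fall close in size to that of *Cd86* (log2 difference −1.33, adjusted *P* = 3.01e-06 in limma with Benjamini-Hochberg adjustment). *H2-Eb1*, a chain of MHC class II, was counted at 1060, 1885 and 1293 in WT and at 42.6, 32.8 and 41.5 in *Irf1-/-* libraries, a far larger fall (−5.11). This likeness is a description over 6 libraries that fall into 2 groups, and 153 tested genes had an *r* above 0.95 with *Cd86*.

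MHC class II presentation, which supplies the antigen signal that CD80 and CD86 accompany, had 6 of 7 tested genes called lower. By the same rule limma called 0.954% of all tested genes lower. The median log2 fold change of the 7 class II genes was −2.64. *H2-Ab1* was counted at 5323, 7442 and 5659 in WT and at 1158, 650.7 and 1218 in *Irf1-/-* libraries 2, 3 and 4. *Ciita*, the transactivator of the class II genes, was counted at 393.4, 610.8 and 637.9 in WT and at 271.8, 170.2 and 163.0 in *Irf1-/-* libraries, a difference (−1.44) close to that of *Cd86*. *H2-DMb1*, the gene not called, was lower by less than the fold change threshold (−0.34, adjusted *P* = 0.0551 in limma with Benjamini-Hochberg adjustment). *Cd86* was thus the ligand of the 8 that passed the test in the same direction as these genes, and a difference between the ligand and class II lists was not tested.

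Few other ligands of the same kinds were called. Of 8 tested B7-family and butyrophilin genes besides the 8 ligands, and of 6 tested TNF-superfamily costimulatory genes, limma, edgeR and DESeq2 each called 0 (2 and 0 at an unadjusted *P* under 0.05), with medians of 0.14 and −0.08. *Vsir*, which encodes the checkpoint ligand VISTA, was counted at 1888, 2134 and 2012 in WT and at 2312, 2111 and 2436 in *Irf1-/-* libraries 2, 3 and 4, with overlap. Of 13 other checkpoint and adhesion ligands, 1 was called higher and 1 lower, against 0.96% and 0.954% of tested genes. Of these 13, 6 passed an unadjusted *P* under 0.05 (16.5% of tested genes), and 8 did not overlap between genotypes (19.9% of tested genes). *Slamf8*, a cell surface receptor of the SLAM family, fell from 165.4, 185.9 and 248.5 in WT to 11.7, 19.9 and 8.30 in *Irf1-/-* libraries (−3.87, adjusted *P* = 1.81e-04 in limma with Benjamini-Hochberg adjustment). *Nectin2*, a ligand of the receptors CD226 and TIGIT, rose from 193.4, 176.9 and 291.5 to 574.6, 414.8 and 366.4 (1.04, adjusted *P* = 0.0316 in limma with Benjamini-Hochberg adjustment). The call of *Nectin2* was lost in 6 of 17 alternatives, among them those without *Irf1-/-* library 2 (0.85) or 3 (1.09) and without WT library 2 (0.96) or 3 (0.90). *H2-T23*, which encodes the NKG2A ligand Qa-1, was at 28777, 30910 and 29391 in WT and at 20784, 20737 and 22704 in *Irf1-/-* libraries. Its adjusted *P* was 0.00803 (limma with Benjamini-Hochberg adjustment) and its log2 difference of −0.47 was under the fold change threshold. The remaining genes at an unadjusted *P* under 0.05 were *Pvr* (0.63), *Icam1* (0.35) and *Lgals9* (−0.25), with adjusted *P* values of 0.175, 0.0714 and 0.194 in limma with Benjamini-Hochberg adjustment. *Pvr* was called higher without WT library 4 (0.85).

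The receptors that the 8 ligands bind include T cell and macrophage genes, and their counts in HSCs ranged widely. Of 7 tested, limma, edgeR and DESeq2 each called 0 (2 at an unadjusted *P* under 0.05), with a median of 0.12. *Treml2* had the highest counts of the list, at a mean of 4651 in WT and 5039 in *Irf1-/-* libraries. *Rgmb* was at a mean of 612 in WT and 600 in *Irf1-/-* libraries. *Sirpa*, the receptor of CD47, was counted at 3475, 3603 and 2781 in WT and at 3846, 4304 and 4061 in *Irf1-/-* libraries 2, 3 and 4. The genotypes of *Sirpa* did not overlap, in the direction opposite to *Cd47* (log2 difference 0.32, adjusted *P* = 0.146 in limma with Benjamini-Hochberg adjustment). *Thbs1*, the gene of the CD47 ligand thrombospondin 1, was counted at 1526, 5425 and 6219 in WT and at 1227, 1212 and 5057 in *Irf1-/-* libraries 2, 3 and 4. The genotypes of *Thbs1* overlapped, and it was not called (−0.92, SE 0.51, adjusted *P* = 0.417 in limma with Benjamini-Hochberg adjustment, and between −1.61 and −0.55 over the alternatives). *Ctla4*, a receptor of CD80 and CD86, was counted at 7.41, 11.3 and 24.7 in WT and at 41.6, 30.2 and 36.3 in *Irf1-/-* libraries 2, 3 and 4. These low counts did not overlap, and *Ctla4* was not called (1.41, SE 0.60, adjusted *P* = 0.251 in limma with Benjamini-Hochberg adjustment). *Cd28* and *Icos* had mean counts of 47.5 and 30.8 in WT and of 51.9 and 33.6 in *Irf1-/-* libraries. *Pdcd1* and *Cd40lg* were under the filter of a mean of 10. Of 11 tested receptors of the other ligands, each tool called 0 (2 at an unadjusted *P* under 0.05). *Cd96* (0.55) and *Cd200r1* (0.49) had adjusted *P* values of 0.0427 and 0.0457 in limma with Benjamini-Hochberg adjustment, and both differences were under the fold change threshold. *Cd96* passed it without WT library 4 (0.67) and *Cd200r1* without *Irf1-/-* library 4 (0.59). By adjusted *P* alone, 3.22% of tested genes passed.

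Few genes that act with or on the ligands were called. Among 8 CD40 signalling adaptors each tool called 0 (2 at an unadjusted *P* under 0.05). *Traf1* and *Map3k14*, named after their values were seen, passed by adjusted *P* (0.0356 and 0.0427 in limma with Benjamini-Hochberg adjustment) but not by fold change (0.45 and 0.49). Among 9 genes that govern the stability or modification of the ligand proteins each tool called 0 (1 at an unadjusted *P* under 0.05). *Cmtm6*, whose product keeps PD-L1 at the surface, was counted at 12916, 13851 and 13353 in WT and at 15680, 15720 and 14025 in *Irf1-/-* libraries 2, 3 and 4 (0.18, adjusted *P* = 0.318 in limma with Benjamini-Hochberg adjustment), without overlap. Among 5 tested signals that govern phagocytosis beside *Cd47*, *B2m* was called lower, against 0.954% of all tested genes. *B2m*, the light chain of MHC class I, was at 101527, 100461 and 98416 in WT and at 62396, 67919 and 64748 in *Irf1-/-* libraries (−0.62, adjusted *P* = 0.00203 in limma with Benjamini-Hochberg adjustment). *Calr*, an engulfment signal, was not called (−0.24).

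Interferon signalling regulates several of the ligands in other cells. Among its most abundant core genes, *Jak1* (0.17), *Stat3* (0.24), *Irf9* (0.30) and *Ifngr1* (0.27) were not called. Among the 5 NF-kB subunits each tool called 0 (0 at an unadjusted *P* under 0.05), with a median of 0.06.

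The ligand genes lie apart from *Irf1*. With genes ordered as in GRCm38.p6, 0 of the 8 was found within 100 tested genes to either side of *Irf1*, a stretch where DNA around a targeted allele can differ in strain of origin. *Cd86* lies between *Casr* and *Ildr1*, and neither was called. *Cd274* and *Pdcd1lg2* are adjacent among tested genes, with *Plgrkt* (0.13) before them. *Insl6*, named after its values were seen, comes next before *Plgrkt*. It fell from 625.4, 538.7 and 684.2 in WT libraries 2, 3 and 4 to 169.5, 144.3 and 186.9 in *Irf1-/-* libraries (−1.88, adjusted *P* = 8.63e-05 in limma with Benjamini-Hochberg adjustment). A call of *Insl6* thus stood beside *Cd274* and *Pdcd1lg2*, which were not called.

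IRF1 binds interferon-stimulated response elements (ISREs), and promoters from RefSeq (GRCm38.p6, 300 bases around each start) were searched on both strands. The ISRE core was written as GAAA, then 2 bases of any kind, then GAAA, and the gamma-activated site, a second interferon-responsive element, as TTCNNNGAA. Of the 8 ligands, 6 had a promoter there (*Cd80*, *Cd274*, *Pdcd1lg2*, *Icosl*, *Cd276* and *Cd47*), and *Cd86* and *Cd40* did not. The ISRE core was found in 3.44% of 32851 promoters and the gamma-activated site in 8.3%. Neither was found in the promoters of the 6 ligands, which says only that these letters are not in these windows. Of 83 list genes whose promoters were searched, 10 had an ISRE core, against 3.99% of all 27025 genes with a promoter. These 10 were 2 of 5 called lower (*Slamf8* and *B2m*, but not *H2-Aa*, *H2-Eb1* or *H2-DMa*), 0 of 1 called higher, 7 of 70 tested and not called (among them *Lgals9* and *H2-T23*) and 1 of 7 not tested. Promoters of list genes on 1 chromosome were left out of this count, and *Cd74*, which was called lower, is not among the 5. No relation between the motif and the calls was tested. As examples of the motif, the promoters of *Slamf8* and *B2m* are shown beside that of *Cd274*, an interferon-inducible ligand that was not called, with the ISRE core in capitals (in *Slamf8* on the opposite strand). A match is a description of the letters and not of binding. The 3 sequences are at chr19:29367188-29367487 (plus strand), chr1:172590519-172590818 (minus strand) and chr2:122147437-122147736 (plus strand) of GRCm38.p6.
Cd274: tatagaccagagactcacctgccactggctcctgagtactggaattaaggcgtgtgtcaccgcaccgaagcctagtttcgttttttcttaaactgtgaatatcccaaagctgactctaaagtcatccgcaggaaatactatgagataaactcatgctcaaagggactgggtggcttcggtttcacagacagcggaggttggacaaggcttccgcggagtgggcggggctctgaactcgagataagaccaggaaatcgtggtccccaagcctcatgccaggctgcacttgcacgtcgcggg
Slamf8: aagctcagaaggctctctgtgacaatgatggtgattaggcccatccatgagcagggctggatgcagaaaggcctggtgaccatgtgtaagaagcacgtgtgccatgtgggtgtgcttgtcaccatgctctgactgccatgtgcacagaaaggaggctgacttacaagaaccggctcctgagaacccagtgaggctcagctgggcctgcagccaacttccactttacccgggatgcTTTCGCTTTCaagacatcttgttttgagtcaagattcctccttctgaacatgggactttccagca
B2m: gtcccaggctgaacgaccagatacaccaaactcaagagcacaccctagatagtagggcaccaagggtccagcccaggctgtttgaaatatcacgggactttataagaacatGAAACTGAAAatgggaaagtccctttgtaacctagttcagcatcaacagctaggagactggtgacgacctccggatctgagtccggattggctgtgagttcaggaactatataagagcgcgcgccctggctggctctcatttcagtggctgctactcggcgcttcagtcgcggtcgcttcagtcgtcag

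*Cd86* and *Cd80* are best known from dendritic cells, B cells and macrophages, so markers of these cells were read in the same libraries. The 8 dendritic cell markers summed to 410.6, 398.9 and 600.3 normalized counts in WT and to 532.0, 320.6 and 333.2 in *Irf1-/-* libraries 2, 3 and 4. The genotypes overlapped in these sums. Of these markers 7 were lower with a median of −0.51, and limma, edgeR and DESeq2 each called 0 (0 at an unadjusted *P* under 0.05). *Zbtb46* was the most abundant, at 236.2, 263.7 and 259.3 in WT and 231.3, 176.3 and 174.4 in *Irf1-/-* libraries, without overlap. The 8 B cell markers summed to between 2796 and 3207 in WT and between 2948 and 3189 in *Irf1-/-* libraries, nearly all of it *Cd79b*, with *Cd79a* between 7.78 and 35.2 and *Pax5* under the filter. The 8 monocyte and macrophage markers summed to between 24475 and 31458 in WT and between 27530 and 33142 in *Irf1-/-* libraries, most of it *Lyz2*, so that these sums show little of the other markers. Of 7 tested B cell markers each tool called 0 (0 at an unadjusted *P* under 0.05), and of the 8 monocyte and macrophage markers limma and edgeR called 0 and DESeq2 called 1 (1 at an unadjusted *P* under 0.05). That marker was *Cd14*, which was higher in *Irf1-/-* libraries (1.17, adjusted *P* = 0.0738 in limma with Benjamini-Hochberg adjustment). The part of dendritic cells, B cells, monocytes or macrophages in the fall of *Cd86* was not tested.

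Markers of the sorted cells were present in all libraries. *Kit* was the most abundant of 11 HSC markers, at a mean of 82582 in WT and 82175 in *Irf1-/-* libraries. Of the 11, limma, edgeR and DESeq2 each called 1, *Fgd5*, which rose (0.83, adjusted *P* = 9.13e-05 in limma with Benjamini-Hochberg adjustment). At an unadjusted *P* under 0.05, 7 of the 11 passed (16.5% of tested genes), and all of them but *Ly6a* were higher in *Irf1-/-* HSCs. These were *Fgd5*, *Procr* (0.52, adjusted *P* = 0.0112 in limma with Benjamini-Hochberg adjustment), *Mecom* (0.30), *Tek* (0.28), *Hlf* (0.25) and *Slamf1* (0.24), the gene of the CD150 antigen used in the sort. *Procr* was called without WT library 2 (0.58). *Ly6a*, the gene of the Sca-1 antigen, also used in the sort, was at 6908, 7439 and 7692 in WT and at 4974, 6047 and 5376 in *Irf1-/-* libraries 2, 3 and 4, a difference under the fold change threshold (−0.43, adjusted *P* = 0.0245 in limma with Benjamini-Hochberg adjustment). By limma, 0.96% of all tested genes were called higher and 0.954% lower. Some markers of neighbouring lineages moved with genotype. *Pf4* and *Gp1ba*, of 5 megakaryocyte markers, fell (−1.11 and −0.69), as did *Klf1* of 3 tested erythroid markers (−0.72), and *Hbb-bt* and *Hba-a1* were listed at 0 in every library. The call of *Gp1ba* was lost without *Irf1-/-* library 2 (−0.70) or 3 (−0.64) or WT library 3 (−0.52), and that of *Klf1* without *Irf1-/-* library 2 (−0.83) or 3 (−0.50) or WT library 2 (−0.66) or 3 (−0.72). Of 5 tested T and NK cell markers and 7 tested granulocyte markers limma, edgeR and DESeq2 each called 0 (1 and 0 at an unadjusted *P* under 0.05), and likewise of 5 stromal and endothelial markers (1). Their part in the differences of the 8 ligands was not tested.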

How the data were processed

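The authors made the deposited values, a signal per gene and library, by trimming reads with Trim Galore, aligning them with HISAT2, counting them per gene with htseq-count and dividing the counts by 1 DESeq2 size factor per library. The submitters' processing notes name the build mm39. The annotation, the strand setting and program versions are not given in the sources used here, so reads of overlapping genes could go to either. All 26264 genes and 6 columns were used. Dividing each column by its smallest value above 0 gave whole reads for 100% of values (tolerance 0.01 reads). Between libraries of 1 genotype the chi-square per gene was 16.2 to 29.8. It covers read-counting error only, and the libraries come from separate mice and amplified cDNA, so no conclusion is drawn from it.

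The main test was limma 3.58.1 (R 4.3.3), with lmFit and with a trend in eBayes, fitted to log2(normalized count + 1) of genes that averaged at least 10, with Benjamini-Hochberg adjustment. edgeR 4.0.16 (quasi-likelihood, TMM) and DESeq2 1.42.0 on recovered reads were alternatives, beside other pseudocounts, filters and scalings, limma without a trend, the replicate number as a block and each library left out. Ratios used exact permutation tests. Exon lengths came from GENCODE vM1, an older annotation, and matched all 8 ligands. Named genes are *Irf1*, the 8 ligands, list genes that were called or among the 4 most abundant of their list, and the 5 genes most like a called ligand. Genes outside this rule were named with their values in view. Some genes of the lists are not reported here. The ligands and lists were chosen with earlier results of these data known.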

Additional observations from a re-analysis of the deposited data

How the results depend on the processing

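*Cd86* kept its direction and its call in all 17 alternatives (log2 difference −1.45 to −1.34, adjusted *P* up to 0.0214 in limma without a trend, with Benjamini-Hochberg adjustment), and the other 7 ligands were called in none. Leaving out 1 library gave ranges of −0.68 to 0.20 for *Cd80*, −0.32 to 0.36 for *Cd40* and −0.0039 to 0.34 for *Icosl*, and single libraries decide these signs. The cause was not tested.

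Across all genes, limma without a trend called 7 higher and 33 lower, and of the genes named here it did not call *Nectin2*, *B2m*, *H2-Ab1*, *H2-DMa*, *Cd74*, *Ciita*, *Fgd5*, *Pf4*, *Gp1ba* and *Klf1*, whose directions held. DESeq2 called 295 higher and 209 lower, and the adjusted *P* alone passed 301 higher and 260 lower. Leaving out 1 library gave 83 to 305 higher and 105 to 265 lower. Deviations of same-numbered libraries had correlations of −0.094, 0.25 and 0.15 for numbers 2, 3 and 4, and *Irf1-/-* library 2 was closest to WT library 4 (0.25), so the numbers were not taken to pair the mice. A replicate block called 219 genes higher and 196 lower. With it *Cd86* was at −1.39 and called, and *Cd47* at −0.21 with an adjusted *P* of 0.0712 (limma with Benjamini-Hochberg adjustment). The term for the side of the leading component was chosen after seeing the data.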
